A study of Mus musculus with 2 samples.

Results

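The EGF receptor genes examined here were 5 ligands (Hbegf, Areg, Ereg, Tgfa and Btc), the receptor Egfr and Errfi1, a cytoplasmic inhibitor of the receptor. They were taken by gene symbol, and all 7 were present among the 32285 genes counted in both libraries. The cells were mononuclear cells of quadriceps muscle from C57 BL/6J wild-type (WT) mice. Both groups had had their quadriceps injected with 1.2% BaCl2 (w/v, 100 ul), which kills muscle fibres, and differed in the time of collection, 2 h or 9 h later. Cells had been cryo-preserved and thawed before droplet capture, and each time was 1 library, with the number of animals not given in the sources used here and no uninjured muscle among the samples. With 1 library per time there was no test across samples, so every difference between the times below is a difference between 2 libraries, and time and library cannot be told apart.

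EGF receptor ligands are made as membrane-anchored precursors that proteases of the ADAM family cut free, after which they bind the receptor on the same or on neighbouring cells. HB-EGF, betacellulin and epiregulin can also bind the related receptor ERBB4, while amphiregulin and TGF-alpha bind EGFR alone. Active EGFR signals through adaptors, RAS and the ERK kinases, and induces its own inhibitors, among them ERRFI1 (also called MIG6), which binds the kinase domain. In injured muscle, amphiregulin from lymphoid cells is known to act on satellite cells, the muscle stem cells, and EGFR is carried by fibro-adipogenic progenitors (FAPs), the muscle's resident fibroblast-like cells.

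On mm10, with GENCODE M21 gene models, Ereg (ENSMUSG00000029377) lay at chr5:91074622-91093646 on the plus strand. Areg (ENSMUSG00000029378) followed on the same strand at chr5:91139599-91148432, 45953 bp after the end of Ereg. Btc (ENSMUSG00000082361) lay at chr5:91357261-91402994 on the minus strand, 208829 bp beyond Areg, so 3 of the 5 ligands shared a stretch of chromosome 5. Tgfa (ENSMUSG00000029999) was at chr6:86195223-86275719 on the plus strand. Egfr (ENSMUSG00000020122) was at chr11:16752203-16918158 and Errfi1 (ENSMUSG00000028967) at chr4:150853919-150868892, both on the plus strand.

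Promoters of 5 of the 7 genes were matched by symbol in a RefSeq table of GRCm38.p6 (Areg, Btc, Tgfa, Egfr and Errfi1, the last with 2 starts). The 250 bases before each start were searched on both strands for 3 motifs that growth-factor signalling is known to use: the cAMP response element TGACGTCA, the AP-1 motif TGANTCA and the EGR motif GCGGGGGCG. The cAMP response element was found before Areg and before 1 start of Errfi1, 61 and 51 bases upstream, and was present in 508 of 32851 promoters (1.55%). The AP-1 and EGR motifs, held by 6.75% and 2.57% of all promoters, were not found in these windows. Both matching windows are shown because the motif sits at a like distance from the start in a ligand and in the receptor's inhibitor. They are written 5′ to 3′ with the motif in capitals, Areg being chr5:91139349-91139598 and Errfi1 chr4:150854820-150855069, both on the plus strand.
Areg: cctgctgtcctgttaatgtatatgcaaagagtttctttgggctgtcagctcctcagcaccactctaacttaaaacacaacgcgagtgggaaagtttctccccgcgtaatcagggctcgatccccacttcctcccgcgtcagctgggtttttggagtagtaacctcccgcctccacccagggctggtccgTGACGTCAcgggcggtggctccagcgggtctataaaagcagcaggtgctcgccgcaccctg
Errfi1: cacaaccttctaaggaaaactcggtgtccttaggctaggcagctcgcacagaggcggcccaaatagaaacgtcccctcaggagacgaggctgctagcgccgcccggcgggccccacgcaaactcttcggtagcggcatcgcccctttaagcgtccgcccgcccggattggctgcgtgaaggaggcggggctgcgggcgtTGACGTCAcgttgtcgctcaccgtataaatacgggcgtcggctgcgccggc
A match describes these letters and is not evidence of a bound factor. The cell classes with the highest levels of these 2 genes differed, as the values by class show.

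The 2 h library held 5729 barcodes, of which 4900 cells with 27598413 UMIs (unique molecular identifiers, counts of captured transcripts) were kept. The 9 h library held 8790 barcodes, of which 8147 cells with 35127600 UMIs were kept. Median UMIs per cell were 4519 and 2327, and 12 barcode sequences occurred among the kept cells of both libraries. Clusters were named from marker lists and are called X-like. FAP-like cells numbered 2025 at 2 h and 2381 at 9 h, and neutrophil-like cells 1637 and 4333. Endothelial-like cells numbered 262 and 504, resident macrophage-like cells 314 and 240, and monocyte-like cells 172 and 357. Smaller classes were dendritic-like (138 and 110), T, NK or ILC2-like (103 and 37), satellite-like (81 and 69), tenocyte-like (80 and 61), pericyte or smooth muscle-like (32 and 33), B-like (45 and 4) and glial-like cells (11 and 18). FAP-like cells came from different clusters at the 2 times. At 2 h they were almost all of cluster 3 (1420 cells) and cluster 7 (594 cells, led by Pi16, Cd248 and Dpp4), and at 9 h of cluster 1 (1622 cells), cluster 11 (478 cells, with Saa1 and Scn7a) and cluster 13 (228 cells). The FAP marker list had a summed level of 64583 CPM (UMIs per 1000000 UMIs of the class) at 2 h and 25770 CPM at 9 h. All 15 of its genes had at least 1 UMI in the class at both times, as they also had in neutrophil-like and endothelial-like cells.

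Levels are UMIs summed over a class in 1 library and given in CPM. Intervals are exact at 95% and cover counting error only. They treat UMIs as independent and are too narrow where a few cells hold most of them. Protocol and counting give 1 UMI per captured 3′ end, so no value was divided by gene length. A summed level does not tell fewer expressing cells from less RNA per cell, and shares of cells with a UMI are therefore also given after thinning each cell to 1000 UMIs.

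**Figure D1:**
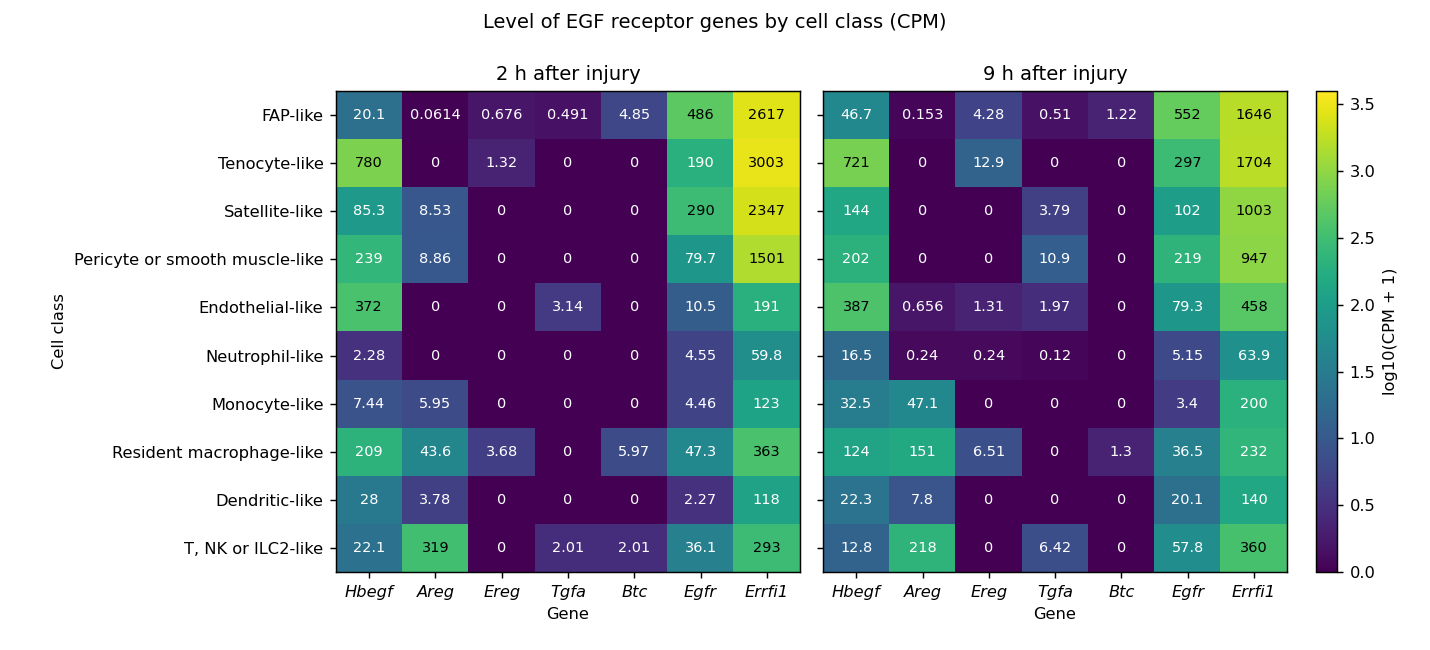
Level of each EGF receptor gene (columns) in 10 cell classes (rows) at 2 h and 9 h after injury, in CPM of summed UMIs, 1 library per time; colour is log10(CPM + 1). Hbegf was highest in tenocyte-like cells, Areg in T, NK or ILC2-like cells, Egfr in FAP-like cells and Errfi1 in tenocyte-like and FAP-like cells.

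Hbegf, the heparin-binding ligand (ENSMUSG00000024486, chr18:36504927-36515805 on the minus strand), was highest in tenocyte-like cells at both times. Its level there was 780 CPM (718 to 845, 591 UMIs) at 2 h and 721 CPM (646 to 802, 335 UMIs) at 9 h, and the intervals overlapped. The ratio of 9 h to 2 h was 0.925 (0.806 to 1.06). Of tenocyte-like cells thinned to 1000 UMIs, 44.9% (33.6 to 56.6) had a Hbegf UMI at 2 h and 31.1% (19.9 to 44.3) at 9 h, after 2 and 0 shallower cells were left out. The corresponding shares of neutrophil-like cells were 0.130% and 1.47%, at median depths of 2011 and 1660 UMIs against 8979 and 7054 in tenocyte-like cells. Per tenocyte-like cell the median count was 3 UMIs at 2 h and 2 at 9 h, with a maximum of 36 and 44.

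Endothelial-like cells came next in both libraries, with 372 CPM (334 to 413) at 2 h and 387 CPM (357 to 420) at 9 h. Their ratio over the whole class was 1.04 (0.912 to 1.19). Without cells with at least 1% of their UMIs in the FAP marker list it was 1.17 (1.02 to 1.34), and with a limit of 0.5% 1.19 (1.04 to 1.36). The finer clustering at resolution 2 split the endothelial-like cells. Cluster 7 was lower at 9 h, with 381 CPM (342 to 423) and 262 CPM (230 to 298). Cluster 18 held 13 endothelial-like cells at 2 h and 158 at 9 h, which stood at 140 CPM (5 UMIs) and 577 CPM. In all, that cluster had 36 and 250 cells, the rest of which belonged to other classes. Pericyte or smooth muscle-like cells followed at 239 CPM (180 to 312) and 202 CPM (143 to 279), with 29 of the 54 UMIs at 2 h in 1 cell. Satellite-like cells had 85.3 CPM (57.6 to 122) at 2 h and 144 CPM (102 to 197) at 9 h, on 30 and 38 UMIs.

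Resident macrophage-like cells were the main immune class with Hbegf. Their level was 209 CPM (190 to 229) at 2 h and 124 CPM (107 to 143) at 9 h, a ratio of 0.596 (0.501 to 0.708). At 2 h they came just below, and with an interval that overlapped, the pericyte or smooth muscle-like class, and at 9 h they overlapped with satellite-like cells. Both macrophage clusters of the finer clustering were lower at 9 h: cluster 16, with Lyve1 and Folr2, had 272 and 175 CPM, and cluster 25, with Retnla and Arg1, had 107 and 66.9 CPM. In monocyte-like cells the direction was the opposite, 7.44 CPM (10 UMIs) at 2 h and 32.5 CPM (67 UMIs) at 9 h.

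FAP-like cells had 20.1 CPM of Hbegf (18.0 to 22.4, 327 UMIs) at 2 h and 46.7 CPM (43.7 to 49.8, 916 UMIs) at 9 h. The 9 h library was 2.33 times higher (2.05 to 2.65). Without clusters 1 and 11, which had no FAP marker among their 10 leading genes, the ratio was 1.48 on 326 and 71 UMIs, which is under 2-fold. That setting left out most FAP-like cells of 9 h (1622 and 478) but only 8 of 2 h. It thus set mainly cluster 13 (228 cells at 9 h) against clusters 3 and 7 of 2 h. By cluster, the 2 h level was 22.2 CPM in cluster 3 and 15.2 CPM in cluster 7, and the 9 h level was 58.7 CPM in cluster 1, 22.6 CPM in cluster 13 and 13.2 CPM in cluster 11. Among these 3 clusters of the 9 h library the higher level was found in cluster 1. The interval of cluster 11 (9.74 to 17.5) lay below that of cluster 3 at 2 h (19.5 to 25.1) and overlapped that of cluster 7. The 9 h library also held 36 cells of cluster 3 and 17 of cluster 7. Their UMIs are part of the 71 above, and their levels are not given here, so a higher level in them is not excluded. After thinning, 1.70% (1.18 to 2.37) of FAP-like cells had a Hbegf UMI at 2 h and 3.95% (3.20 to 4.82) at 9 h, against 9.09% and 21.0% unthinned. The summed level of tenocyte markers in FAP-like cells was 94.2 and 115 CPM (9 of 9 detected at both times), against 29617 and 18689 CPM in tenocyte-like cells, and its part in the result was not tested.

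Neutrophil-like cells had 8 Hbegf UMIs at 2 h (2.28 CPM, 0.983 to 4.49) and 138 at 9 h (16.5 CPM, 13.9 to 19.5), a ratio of 7.26 (3.58 to 17.2). At 9 h these UMIs lay in 113 of 4333 cells, with at most 7 in 1 cell. Neutrophil clusters 2 and 5 had 24.1 and 19.3 CPM at 9 h, and clusters 10 and 4 had 6.19 and 5.69 CPM. Clusters 2 and 5 had no neutrophil marker among their 10 leading genes. Marker lists of other classes moved both ways in neutrophil-like cells. The summed FAP list had 843 CPM at 2 h and 295 CPM at 9 h (15 of 15 genes at both times) and the tenocyte list 19.9 and 8.27 CPM (8 of 9). The endothelial list had 113 and 204 CPM and the resident macrophage list 51.2 and 68.7 CPM (12 of 12 each), and the erythroid list 3.41 and 262 CPM (3 and 5 of 5). The part of such RNA in the Hbegf result was not tested. Over all kept cells Hbegf stood at 68.3 CPM and 66.6 CPM, a ratio of 0.975 (0.917 to 1.04), so the total was nearly the same while the classes that held it differed. Of its UMIs, 31.4% at 2 h and 14.3% at 9 h lay in tenocyte-like cells, while resident macrophage-like cells held 24.1% and 8.17%, FAP-like cells 17.4% and 39.2%, and endothelial-like cells 18.9% and 25.3%. These shares also follow the number of cells of each class that each library captured.

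**Figure D2:**
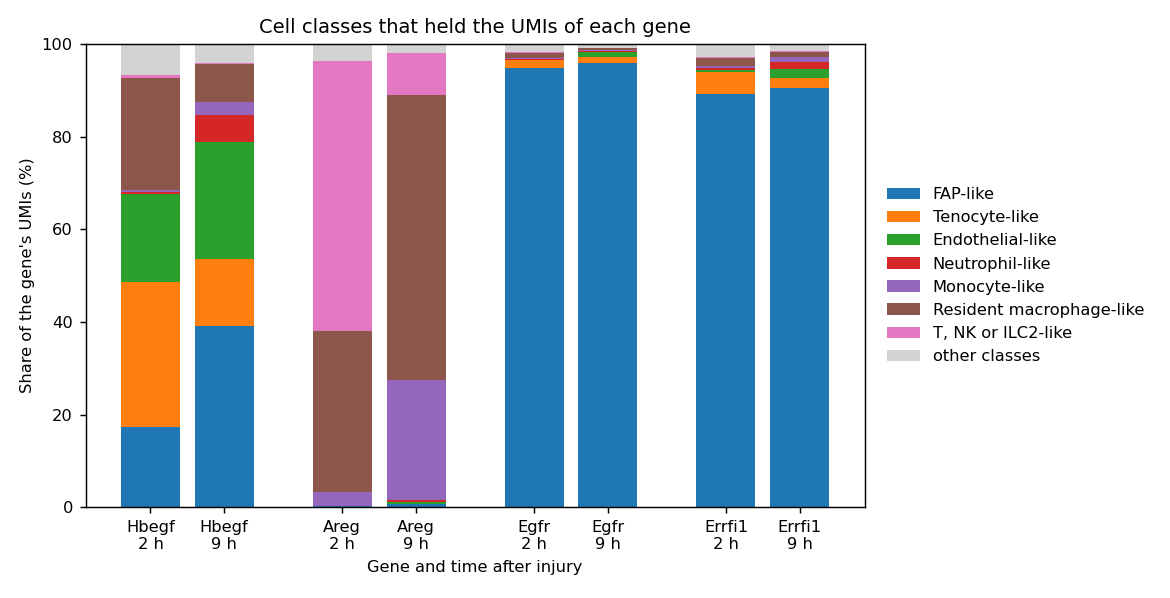
Share of the UMIs of Hbegf, Areg, Egfr and Errfi1 (%, y axis) held by each cell class at 2 h and 9 h (1 library each; colours are classes). FAP-like cells held 94.8% and 95.9% of Egfr UMIs, and the largest holder of Areg was the T, NK or ILC2-like class at 2 h (58.2%) and the resident macrophage-like class at 9 h (61.7%).

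Areg, which encodes amphiregulin, had a narrower set of carriers. T, NK or ILC2-like cells had 319 CPM (271 to 372, 159 UMIs) at 2 h and 218 CPM (151 to 305, 34 UMIs) at 9 h, a ratio of 0.685 (0.458 to 0.997). Of these UMIs, 93 of 159 at 2 h and 31 of 34 at 9 h came from 5 cells. Without the highest cell of each time, which held 21 and 13 UMIs, the levels were 279 and 138 CPM. A finer clustering separated T or NK-like cells (74 and 10 cells) from a cluster of 29 and 27 cells that carried Gata3 and Il5, genes of group 2 innate lymphoid cells (ILC2). Areg was itself among the leading genes of that cluster, so its level there describes the cluster and is no test. In these ILC2-like cells Areg stood at 820 CPM (692 to 966) at 2 h, in 21 of 29 cells, and at 283 CPM (196 to 396) at 9 h, in 8 of 27 cells. The T or NK-like cells had 46.4 CPM at 2 h, from 15 UMIs in 3 of 74 cells, and 0 UMIs in 10 cells at 9 h. Foxp3, the marker of regulatory T cells, had 0 UMIs in the ILC2-like cells at both times, and Cd3e, which marks T cells, had 1 and 0. Of other T or NK markers, Trbc2 had 22 UMIs in 10 of 29 cells at 2 h and 6 in 4 of 27 at 9 h. Nkg7 had 11 and 2 UMIs, and Gzma 0 at both times. Of the list that named the cluster, which joins ILC2 and regulatory T markers, Il2ra had 138 and 57 UMIs and Il13 9 and 0.

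Resident macrophage-like cells were the other main carriers of Areg, with 43.6 CPM (35.3 to 53.4, 95 UMIs) at 2 h and 151 CPM (132 to 172, 232 UMIs) at 9 h. The ratio was 3.46 (2.72 to 4.44). Nearly the same number of cells carried it, 36 of 314 at 2 h and 33 of 240 at 9 h, and after thinning the shares were 3.58% (1.80 to 6.32) and 6.44% (3.65 to 10.4), which overlap, with 7 shallower cells left out of each library. At 9 h 62 of the 232 UMIs came from 1 cell and 143 from 5 cells. Without that 1 cell the 9 h level was 112 CPM, and without the highest cell of 2 h the 2 h level was 40.2 CPM. Both finer macrophage clusters were higher at 9 h, cluster 16 with 33.7 and 104 CPM and cluster 25 with 58.5 and 229 CPM. Of the macrophage-like carriers, 30.6% at 2 h and 39.4% at 9 h also had a UMI of any of 19 lymphoid markers, against 19.4% and 23.2% of the cells without Areg, and the part of such RNA was not tested. Of the 7 ILC2 or regulatory T markers, 2 were detected in macrophage-like cells at 2 h (summed level 2.76 CPM) and 0 at 9 h. Of the 12 T or NK markers, 3 were detected at 2 h (103 CPM) and 2 at 9 h (160 CPM), namely Cd3d and Il7r. The 9 h comparison of carriers therefore rests on these 2 genes of the 19.

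In monocyte-like cells Areg had 8 UMIs at 2 h (5.95 CPM, 2.57 to 11.7) and 97 at 9 h (47.1 CPM, 38.2 to 57.5), a ratio of 7.92 (3.86 to 18.9). These 97 UMIs came from 12 of 357 cells, 36 of them from 1 cell, without which the level was 29.7 CPM. The 8 UMIs at 2 h came from 2 of 172 cells, 7 of them from 1 cell, without which the level was 0.748 CPM. FAP-like cells had 1 and 3 Areg UMIs, tenocyte-like cells 0 at both times, neutrophil-like cells 0 and 2, and endothelial-like cells 0 and 1. The order at 2 h was T, NK or ILC2-like, then resident macrophage-like cells, whose intervals did not overlap. At 9 h these 2 classes overlapped, and monocyte-like cells came next, with an interval apart from both neighbours. Over all kept cells Areg was at 9.89 and 10.7 CPM, with a ratio of 1.08 (0.923 to 1.27). T, NK or ILC2-like cells held 58.2% of its UMIs at 2 h and 9.04% at 9 h, and resident macrophage-like cells 34.8% and 61.7%. These shares also follow the number of cells captured, 103 and 37 in the T, NK or ILC2-like class and 314 and 240 in the other.

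The other 3 ligands were sparse. Ereg, which encodes epiregulin, had 20 UMIs in the 2 h library and 104 in the 9 h library, a ratio over all cells of 4.09 (2.51 to 6.96). FAP-like cells held 11 of them at 2 h (0.676 CPM) and 84 at 9 h (4.28 CPM, 3.42 to 5.30), and 76 of the 84 lay in FAP cluster 1, whose level was 5.60 CPM. The 84 UMIs came from 37 of 2381 FAP-like cells, with at most 13 in 1 cell. Tenocyte-like cells had 1 UMI at 2 h and 6 at 9 h (12.9 CPM, 4.74 to 28.1). Resident macrophage-like cells had 8 UMIs at 2 h, all in 1 cell, and 10 at 9 h, all in cluster 25 of the finer clustering.

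Btc, which encodes betacellulin, was the reverse of Ereg, with 94 UMIs at 2 h and 26 at 9 h. FAP-like cells held 84.0% of them at 2 h and 92.3% at 9 h, at 4.85 CPM (3.84 to 6.05) and 1.22 CPM (0.784 to 1.82). The level was 3.96-fold lower at 9 h (2.48 to 6.55). Within the 2 h library Btc stood at 7.01 CPM in the Pi16 and Dpp4 cluster 7 and at 3.91 CPM in cluster 3, with overlapping intervals (4.89 to 9.76 and 2.84 to 5.24). Resident macrophage-like cells had 13 Btc UMIs at 2 h, 11 of them in 1 cell. Tgfa had 12 UMIs at 2 h and 18 at 9 h in all kept cells, of which FAP-like cells held 8 and 10 and endothelial-like cells 3 and 3. A difference in Tgfa between the libraries was not detectable at this depth (ratio 1.18, 0.537 to 2.68).

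Egfr, the receptor, was highest in FAP-like cells in both libraries. Its level was 486 CPM (475 to 496, 7906 UMIs) at 2 h and 552 CPM (542 to 563, 10830 UMIs) at 9 h, a ratio of 1.14 (1.10 to 1.17). These cells accounted for 94.8% and 95.9% of all Egfr UMIs. After thinning, 34.7% (32.6 to 36.9) of them had an Egfr UMI at 2 h and 40.6% (38.6 to 42.6) at 9 h, against 0.455% and 0.499% of neutrophil-like cells. Thinning left out 24 of 2025 and 52 of 2381 FAP-like cells, and 97 of 1637 and 326 of 4333 neutrophil-like cells. The receptor varied little among the FAP clusters: 496 and 463 CPM in clusters 3 and 7 at 2 h, and 536, 645 and 513 CPM in clusters 1, 11 and 13 at 9 h. Cluster 11 was the highest of them, with an interval (620 to 672) above those of the others named.

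Satellite-like cells came next at 2 h with 290 CPM (237 to 352, 102 UMIs) and came after tenocyte-like and pericyte or smooth muscle-like cells at 9 h with 102 CPM (67.4 to 149, 27 UMIs). That was 2.84-fold lower at 9 h (1.84 to 4.51). Leaving out satellite-like cells with at least 1% of their UMIs in FAP markers gave 315 and 105 CPM. Tenocyte-like cells had 190 CPM (160 to 224) at 2 h and 297 CPM (249 to 351) at 9 h, a ratio of 1.56 (1.23 to 1.99). Pericyte or smooth muscle-like cells had 79.7 CPM at 2 h and 219 CPM at 9 h on 18 and 40 UMIs, of which 7 and 24 lay in cells with at least 1% FAP-marker UMIs. Resident macrophage-like cells had 47.3 CPM (38.6 to 57.4) and 36.5 CPM (27.6 to 47.4). Of their 103 and 56 UMIs, 64 and 24 lay in the 14 and 6 cells with at least 1% FAP-marker UMIs, and the remaining cells had 20.02 and 21.9 CPM. B-like cells had 17 Egfr UMIs at 2 h, all in 1 cell that also carried FAP markers. Neutrophil-like cells had 4.55 and 5.15 CPM, and monocyte-like cells 4.46 and 3.40 CPM.

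Endothelial-like cells had 10 Egfr UMIs at 2 h (10.5 CPM, 5.01 to 19.2) and 121 at 9 h (79.3 CPM, 65.8 to 94.8), a ratio of 7.59 (3.99 to 16.2). Of the 121 UMIs, 103 lay in 25 of the 504 cells, those with at least 1% of their UMIs in the FAP marker list. At 2 h 6 of the 10 UMIs lay in 2 such cells of 262. Without these cells, 4 UMIs at 2 h (4.26 CPM, 1.16 to 10.9) and 18 at 9 h (13.7 CPM, 8.12 to 21.7) remained, a ratio of 3.22 (1.06 to 13.1). Of these 18 UMIs, 14 lay in 4 cells with between 0.5% and 1% FAP-marker UMIs, and leaving out all cells with at least 0.5% FAP-marker UMIs (2 and 34 cells) left 4 Egfr UMIs in each library, 4.26 and 3.14 CPM. The ratio was then 0.739 (0.138 to 3.97), so in endothelial-like cells with few FAP-marker UMIs no higher Egfr at 9 h was detectable at this depth. The FAP list had a summed level of 1232 CPM at 2 h and 2984 CPM at 9 h in endothelial-like cells, 15 of 15 genes at both times, and Dcn had 316 and 1082 CPM. Cluster 18 of the finer clustering held 112 of the 121 UMIs and 24 of the 25 cells, while cluster 7 had 10.9 CPM at 2 h and 9.79 CPM at 9 h. Both limits were chosen after the data had been seen. FAP-like cells themselves had 64583 CPM of this list at 2 h and 25770 CPM at 9 h. The same limit thus stands for a larger part of FAP RNA in a cell at 9 h. Ratios taken under these limits, here and in other classes, compare cells filtered unlike at the 2 times.

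**Figure D3:**
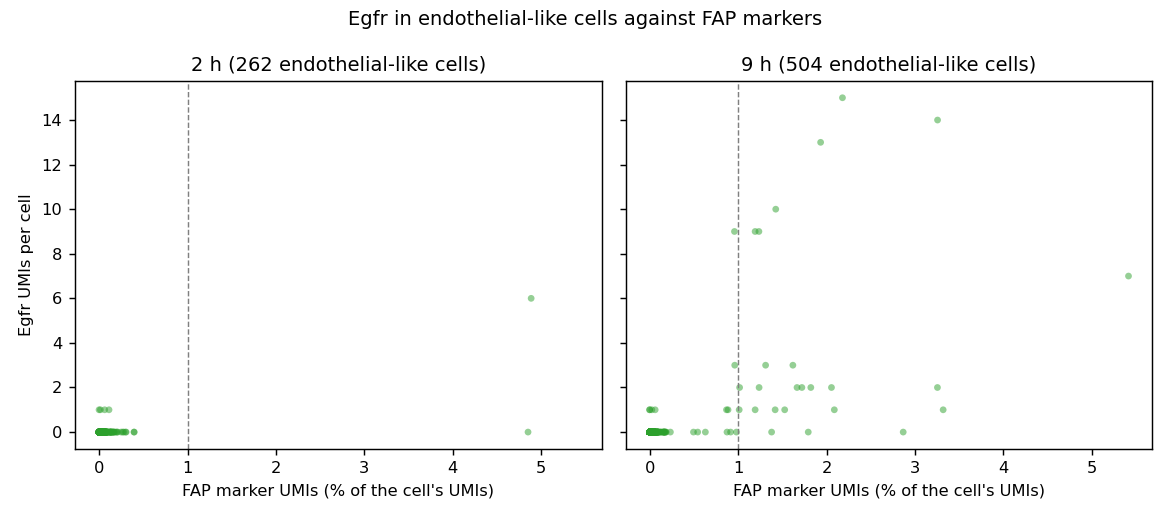
Each point is 1 endothelial-like cell at 2 h (262 cells) or 9 h (504 cells), with the share of its UMIs in the FAP marker list (%, x axis) and its Egfr UMIs (y axis); the dashed line is at 1%. Of the Egfr UMIs, 103 of 121 at 9 h lie at or to the right of the line, in 25 cells.

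Errfi1, which encodes the feedback inhibitor, was highest in the mesenchymal and satellite-like classes that also had Egfr. At 2 h it stood at 3003 CPM (2881 to 3129) in tenocyte-like, 2617 CPM (2593 to 2642) in FAP-like, 2347 CPM (2189 to 2512) in satellite-like and 1501 CPM (1346 to 1670) in pericyte or smooth muscle-like cells. No 2 of these 4 intervals overlapped. All 4 classes were lower at 9 h. FAP-like cells had 1646 CPM (1629 to 1665), which was 1.59-fold lower (1.57 to 1.61). Tenocyte-like cells had 1704 CPM (1587 to 1827), 1.76-fold lower (1.63 to 1.91), and the order of these 2 classes was no longer separated. Satellite-like cells had 1003 CPM (886 to 1131), 2.34-fold lower (2.03 to 2.70), and pericyte or smooth muscle-like cells 947 CPM (811 to 1099), 1.59-fold lower (1.32 to 1.92).

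FAP-like cells held 89.3% of Errfi1 UMIs at 2 h and 90.4% at 9 h. After thinning, 78.6% (76.7 to 80.4) of FAP-like cells had an Errfi1 UMI at 2 h and 70.4% (68.5 to 72.3) at 9 h, against 6.10% and 6.16% of neutrophil-like cells. The main 2 h clusters 3 and 7 had 2512 and 2854 CPM, and the 9 h clusters 1, 11 and 13 had 1774, 1310 and 1365 CPM. The 36 cells of cluster 3 that came from the 9 h library had 2284 CPM, between the levels of both groups. Cluster 11, the highest of the 9 h clusters in Egfr, was therefore the lowest of the 3 in Errfi1, together with cluster 13, whose interval (1316 to 1416) overlapped with its own (1273 to 1348).

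The immune and endothelial classes had lower Errfi1. Resident macrophage-like cells had 363 CPM (338 to 389) at 2 h and 232 CPM (208 to 257) at 9 h, and monocyte-like cells 123 CPM (105 to 144) and 200 CPM (181 to 220). Leaving out cells with at least 1% FAP-marker UMIs gave 248 and 195 CPM in macrophage-like cells, and 86.8 and 200 CPM in monocyte-like cells. T, NK or ILC2-like cells had 293 and 360 CPM, and 80.3 and 51.9 CPM without such cells. Dendritic-like cells had 118 and 140 CPM, and 118 and 97.2 CPM without such cells, with overlapping intervals in both cases. Neutrophil-like cells had 59.8 CPM (52.0 to 68.4) and 63.9 CPM (58.6 to 69.5), a ratio of 1.07 (0.909 to 1.26). Endothelial-like cells had 191 CPM (165 to 221) at 2 h and 458 CPM (424 to 493) at 9 h, a ratio of 2.39 (2.03 to 2.83). In their finer cluster 7, which held most of them, Errfi1 was lower at 9 h, with 178 CPM (152 to 207) and 113 CPM (92.5 to 137). The endothelial-like cells of cluster 18, 13 at 2 h and 158 at 9 h, had 532 and 980 CPM. Without cells of at least 1% FAP-marker UMIs the class had 185 and 252 CPM, a ratio of 1.36 (1.13 to 1.65), and without those of at least 0.5% the ratio was 1.19 (0.980 to 1.44), both below the 2-fold limit used for calls.

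**Figure D4:**
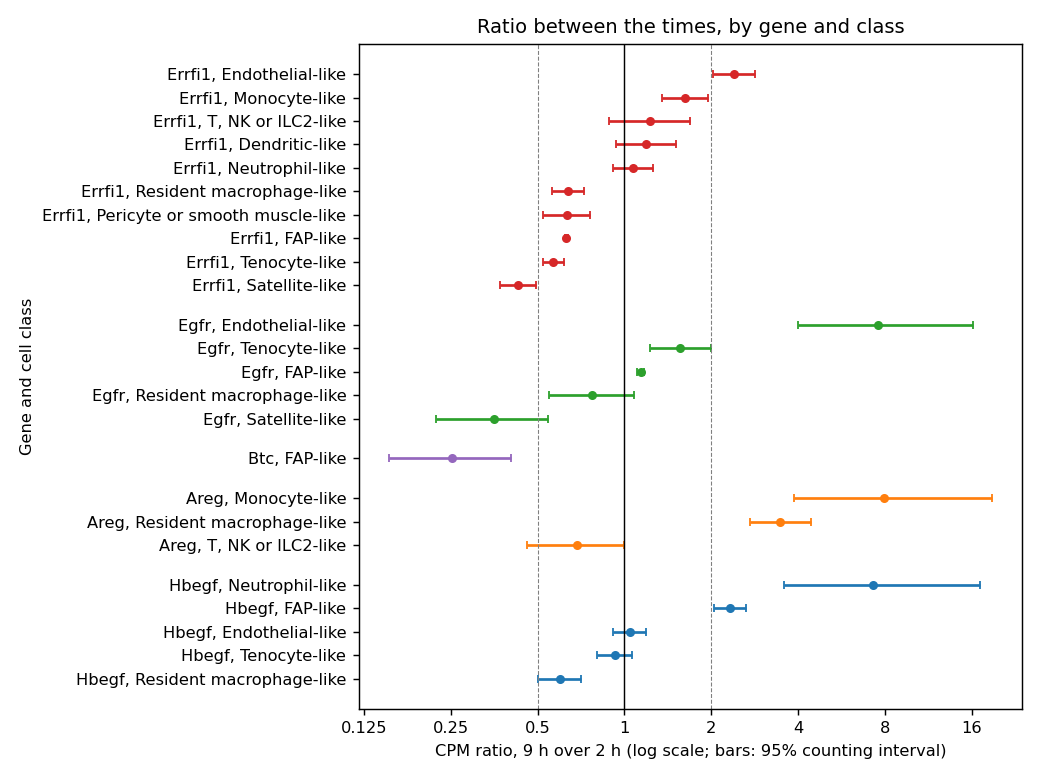
Ratio of the 9 h to the 2 h level (CPM, log axis) for Hbegf, Areg, Btc, Egfr and Errfi1 in each class with at least 100 UMIs of the gene over both libraries; bars are exact 95% counting intervals and dashed lines mark 2-fold either way. Errfi1 was below 1 in FAP-like, tenocyte-like, satellite-like, pericyte or smooth muscle-like and resident macrophage-like cells, while Areg was above 1 in monocyte-like and resident macrophage-like cells.

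The 7 genes were set beside all genes in the 4 largest comparisons, counting those with at least 100 UMIs over both libraries and calling a ratio of 2 or more either way. In FAP-like cells 4 of the 7 reached 100 UMIs (Hbegf, Btc, Egfr and Errfi1). Hbegf was called higher at 9 h, as were 15.7% of the 10494 genes so measured (1651 genes), and Btc was called lower, as were 20.6% (2167 genes). Hbegf was not called without clusters 1 and 11, a setting that left out most FAP-like cells of 9 h. In endothelial-like cells 3 were measured, and Egfr and Errfi1 were called higher, against 9.11% of 3864 genes. Neither was called without the cells of at least 0.5% FAP-marker UMIs. None was called lower there, against 9.32%. In neutrophil-like cells 2 were measured, Hbegf was called higher against 9.45% of 4961 genes, and none was called lower against 10.1%. In monocyte-like and macrophage-like cells joined as 1 class 4 were measured, Areg was called higher against 3.83% of 6108 genes, and none was called lower against 9.35%. In those joined cells Areg had 29.2 and 91.5 CPM, a ratio of 3.13 (2.50 to 3.94), and Hbegf 132 and 71.8 CPM, a ratio of 0.545 (0.466 to 0.636). Both lie outside the ratios of the separate classes, 3.46 and 7.92 for Areg and 0.596 and 4.38 for Hbegf in resident macrophage-like and monocyte-like cells. Monocyte-like cells made up 172 of the 486 joined cells at 2 h and 357 of 597 at 9 h, so the joined values also follow this mix. With so few of the 7 measured in a class, these counts are a description of the members and not of the pathway.

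Hbegf and Egfr were also counted in the same FAP-like cells. At 2 h 9.61% of FAP-like cells with an Egfr UMI also had a Hbegf UMI, against 6.04% of those without. At 9 h the shares were 21.5% and 16.8%. Cells with an Egfr UMI were deeper, with median counts of 8424 and 8536 UMIs against 4318 and 3420, so these shares differ in depth as well. In tenocyte-like cells 70.2% of Egfr-positive and 65.2% of Egfr-negative cells had Hbegf at 2 h, and 69.2% and 72.7% at 9 h. Areg and Egfr UMIs were found together in 1 FAP-like cell at 2 h and in 3 at 9 h.

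The rest of the pathway was examined in FAP-like cells, the class with most of the receptor. Among all measured genes the median log2 ratio of 9 h to 2 h was 0.00. None of 6 other ErbB ligands reached 100 UMIs there. Of 3 other ErbB receptors only Erbb2 did, at 5.28 and 5.56 CPM, while Erbb3 had 1.97 and 0.918 CPM and Erbb4 had 0 UMIs in both libraries. Of 7 genes of ligand shedding, all measured, 0 were higher and 1 was lower by 2-fold or more (15.7% and 20.6% of all measured genes), with a median log2 ratio of -0.09. The lower one was Adam9, a membrane protease, with 103 and 47.7 CPM. Adam17, the protease that releases most of these ligands, had 81.3 and 43.9 CPM, which was 1.85-fold lower, and Cd9, a tetraspanin partner of HB-EGF, had 717 and 529 CPM. Adam8 had 19.2 and 25.6 CPM.

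Of 20 receptor adaptors and kinases, all measured, 0 were higher and 2 lower (again beside 15.7% and 20.6%), with a median log2 ratio of -0.02. Gab1, a docking protein, had 14.4 and 4.79 CPM, and Mapk3, which encodes ERK1, had 49.6 and 16.8 CPM. Map2k1 and Hras had the largest ratios upward, 1.87 and 1.83, and Stat3 and Nras the highest levels at 2 h, with 288 and 207 CPM and 126 and 105 CPM. Of 16 measured negative regulators other than Errfi1, 2 were higher and 0 lower, where 15.7% and 20.6% of all genes were, with a median log2 ratio of -0.03. Socs5, which targets the receptor for degradation, had 42.1 and 171 CPM, a ratio of 4.06 (3.74 to 4.42), and Spry2, an inhibitor of RAS to ERK signalling, had 114 and 268 CPM, a ratio of 2.35 (2.23 to 2.48). Spred1 had 415 and 453 CPM and Cblb, a ubiquitin ligase, 174 and 123 CPM. Of the 16, 7 had a ratio above 1 and 9 a ratio below 1, the direction of Errfi1.

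Of 11 measured growth-factor response genes, 3 were higher and 3 lower by 2-fold or more (all genes, 15.7% and 20.6%), with a median log2 ratio of -0.29. The lower ones were immediate-early transcription factors: Fos with 1622 and 279 CPM, Egr1 with 3115 and 615 CPM, and Egr3 with 43.5 and 15.96 CPM. The higher ones were Fosl1, an AP-1 subunit of the later response, with 55.0 and 201 CPM, Ier3 with 120 and 311 CPM, and Plaur, the urokinase receptor, with 68.2 and 142 CPM. Fos and Egr1 are also known to respond to cell isolation, and handling and time cannot be told apart here.

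Genes whose pattern was most like each of the 7 were found by the Pearson correlation of log2(CPM + 10) over the 17 class and time units of at least 50 cells, among 3928 genes. The units share 2 libraries, and the values are a description. For Hbegf these were Synpo (0.90), Tpm1 (0.85) and Sphk1 (0.83), and for Areg Pld3 (0.81), Arg1 (0.80) and Cd200r1 (0.79). Egfr was closest to Ddr2 (0.98), Loxl1 (0.97) and Cp (0.97), and Errfi1 to Clmp, Cryab and Rbms3 (0.97 each). For Ereg the nearest were Mt4, Hspb7 and Sult1e1, for Tgfa Krit1, Ddit4 and Nxn, and for Btc Ccl8, Cd248 and Cd55. The last 3 members never exceeded 12.9, 3.79 and 5.97 CPM in any of these units, so that their patterns rest on few UMIs.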

How the data were processed

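Single-cell 3′ libraries of quadriceps mononuclear cells were sequenced at 2 h and 9 h after injury, 1 per time. The deposited values are counts (UMIs per gene and barcode). The submitters' processing notes name Cell Ranger 5.0.0 and the build mm10 for what the authors did. The gene symbols and the barcodes were used as the authors deposited them. The annotation release was not given in the sources used here.

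Cells with under 200 genes, under 500 UMIs or over 20% mitochondrial UMIs were removed. Doublet calls by Scrublet (6 cells of the 2 h library, 0.122%, and 0 of the 9 h library) stayed below 0.5% and were not used, so no doublet was removed. Both libraries were clustered together (2000 variable genes, 30 components, 15 neighbours, Leiden resolution 1, seed 0) with Scanpy 1.11.5 and leidenalg 0.10.2. A cluster took the name of its best marker list when at least 3 markers were each detected in 10% of cells, its score was 1.5 times the next, and its 10 leading genes did not favour another class. After the first clusters were seen this rule was adjusted: competing lists also needed 3 detected markers, and T or NK was joined with ILC2 where scores were close.

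Members, lists and comparisons were chosen with earlier results of these data known. Named genes were the 7 members in classes of at least 20 cells, the 2 of each list with the highest level and the 2 with the largest ratio either way in FAP-like cells, and the 3 genes most like each member. Genes beyond that rule (Adam17, Erbb3, Egr3 and the other list genes given, and the B-like cell values) were chosen after their values were seen. Ratio intervals were checked on simulated data with independent Poisson counts for each gene. Such data leave out UMIs that lie together in a few cells, so the check does not cover that case. Poisson, Clopper-Pearson and conditional binomial intervals are exact at 95%. TMM scaling used edgeR 4.0.16. The sparse ligands rest on at most 104 UMIs per library.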

Additional observations from a re-analysis of the deposited data

Results flagged for a closer look

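Several ratios of 9 h to 2 h lay on opposite sides of 1 in different cell classes. The difference between classes was itself not tested, since each time was 1 library. For Hbegf the ratio was 2.33 in FAP-like and 7.26 in neutrophil-like cells, but 0.545 in monocyte-like and macrophage-like cells joined. Apart, resident macrophage-like cells had 0.596 and monocyte-like cells 4.38, and monocyte-like cells made up 172 of the 486 joined cells at 2 h and 357 of 597 at 9 h. For Egfr it was 1.14 in FAP-like and 7.59 in endothelial-like cells, but 0.566 in monocyte-like and macrophage-like cells. The endothelial value was 3.22 without cells with at least 1% FAP-marker UMIs and 0.739 without those with at least 0.5%, on 4 UMIs in each library. The joined monocyte and macrophage value was 0.875 (0.549 to 1.39) and 0.830 (0.514 to 1.34) under the same limits, 0.784 without the highest doublet scores and 0.930 at resolution 0.5. For Errfi1 it was 2.39 in endothelial-like cells (1.36 and 1.19 under those limits), 0.629 in FAP-like cells and 0.786 over monocyte-like and macrophage-like cells (1.08 and 1.05).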

How the results depend on the processing

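No paired analysis was possible because each time was 1 library, and no library could be left out. Of 91 alternatives to 13 log2 ratios, 86 kept their sign and 84 their side of 2-fold. The 5 of other sign were Egfr in endothelial-like cells (-0.44 without cells of 0.5% FAP-marker UMIs against 2.92, on 4 UMIs in each library, also across 2-fold), Errfi1 in monocyte-like and macrophage-like cells (main -0.35; 0.17 without the highest doublet scores, 0.11 and 0.08 without cells of 1% and of 0.5% FAP-marker UMIs) and Hbegf in endothelial-like cells (-0.02 at resolution 0.5 against 0.06). The others across 2-fold were Hbegf in FAP-like cells (0.56 without clusters lacking a leading FAP marker), Egfr in monocyte-like and macrophage-like cells (-1.34 at resolution 2) and, in endothelial-like cells, Egfr (0.75 at resolution 2) and Errfi1 (0.27 at resolution 2, 0.45 and 0.25 without cells of 1% and of 0.5% FAP-marker UMIs). TMM scaling moved the median log2 ratio of all genes in monocyte-like and macrophage-like cells from -0.03 to 0.10.

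Counts of members called in FAP-like cells were 3 higher with no filter on low counts, 0 higher without clusters lacking a leading FAP marker, and 0 lower in that setting, without the highest doublet scores and without the Scn7a cluster. In these 3 settings Btc kept its direction (ratios 0.172, 0.241 and 0.258 against 0.252), and its UMIs fell under the minimum of 100. Members called lower in monocyte-like and macrophage-like cells were 1 with no filter and 1 at resolution 2. Neutrophil-like cells had 0 higher at resolution 2, where Hbegf had a ratio of 5.40 but 8 and 87 UMIs, under the same minimum. At that resolution a cluster of 1 cell at 2 h and 571 at 9 h, best matched by the neutrophil list, stayed unnamed and was left out. Endothelial-like cells had 1 higher without the highest doublet scores, 0 at resolution 2 and 0 without cells of 1% or of 0.5% FAP-marker UMIs. The cause of the other differences was not tested.

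The share of Egfr UMIs in FAP-like cells was 96.2% at 2 h and 96.7% at 9 h without the highest doublet scores, and 93.0% and 95.3% at resolution 2. For Errfi1 it was 90.006% and 91.1% with a mitochondrial limit of 10%, 90.5% and 91.3% without the highest doublet scores, and 86.6% and 89.7% at resolution 2. With that mitochondrial limit the share of Hbegf UMIs was 19.2% and 42.5% in FAP-like cells, 34.0% in tenocyte-like cells at 2 h, and 15.9% and 21.3% in endothelial-like cells (22.5% at 9 h without the highest doublet scores). Thinned to 2000 UMIs, 57.4% and 61.0% of FAP-like cells had an Egfr UMI, and 26 of 32 shares were higher than at 1000. The alternatives without FAP-marker cells at either limit and without the Scn7a cluster were chosen after seeing the data.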

Other observations

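Nrg1, which encodes neuregulin 1, a ligand of ERBB3 and ERBB4 and not of EGFR, was measured among the other ErbB ligands in monocyte-like and macrophage-like cells. It had 16.2 CPM at 2 h and 71.8 CPM at 9 h, a ratio of 4.43 (3.32 to 6.02). In the same cells Adam8, Cd9, Dusp5, Fosl1, Ier3 and Vegfa had ratios of 2.38, 2.53, 2.02, 2.29, 2.54 and 3.58. Both classes were joined for these values. Monocyte-like cells made up 172 of the 486 joined cells at 2 h and 357 of 597 at 9 h, so the ratios also follow this mix. In neutrophil-like cells Adam10, Hras, Spred1, Egr3, Ier3 and Phlda1 had ratios of 2.54, 2.17, 3.07, 2.54, 3.81 and 2.92, and Fos, Braf and Mapk3 0.380, 0.484 and 0.494. In endothelial-like cells Spry2, Cblb and Fosl1 had ratios of 3.57, 2.51 and 2.33, and Adam17, Mapk3, Fos, Egr1 and Egr3 had 0.451, 0.469, 0.381, 0.325 and 0.470. The FAP list had 1232 and 2984 CPM in endothelial-like cells, and Spry2 and Cblb had 268 and 123 CPM in FAP-like cells at 9 h; the part of FAP RNA in these ratios was not tested. These are all measured list genes past 2-fold in the 3 classes, chosen after their values were seen, and no test was made. Of all measured genes, 3.83% in the joined class, 9.45% in neutrophil-like and 9.11% in endothelial-like cells were higher by 2-fold or more. The shares lower by as much were 9.35%, 10.1% and 9.32%.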
